A study of Rattus norvegicus with 8 samples.

Results

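In peripheral blood mononuclear cells (PBMCs) 9 genes were followed, of which 8 are known to be induced by glucocorticoids and the last, *Nr3c1*, encodes their receptor. No hormone level of the plasma given to the cells was available. Whether these genes read steroid in it was therefore not tested. The genes were listed with earlier results of these arrays known. Of them, *Rasd1* and *Fkbp5* were chosen by their own ratios between the 10% IH arrays and the control or autologous arrays, so those ratios are given as descriptions with no test. All probe sets annotated to exactly 1 of the symbols were taken. This gave 12 probe sets of 8 genes, out of 31042 probe sets and 14217 genes on the array, and 7 of the 8 genes are induced genes. No probe set carried the symbol *Zbtb16*, a transcriptional repressor, and its level was not analysed here.

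The cells came from 2 male Brown Norway (BN) rats of about 180 days, called BN1 and BN2, and served as reporters of what the plasma contained. Cultures of 500000 cells were held for 6 h in 20% plasma, and 1 array was hybridized per donor and plasma, 8 arrays in all. The plasma was the BN rats' own (autologous) or 1 of 3 pools from male Sprague-Dawley (SD) rats killed as adults (PD114) after a night without food. These had been kept in room air (normoxic control, 21% oxygen, 8 rats), or exposed as pups to 5% intermittent hypoxia (5% IH, 5 rats) or 10% intermittent hypoxia (10% IH, 3 rats) for 1 h daily from postnatal day 2 to 6. Each pool was made once and given to both donors, so replicates within a pool differ by reporter animal, culture and array. They carry no variation among pools. Autologous plasma differed from the pools in strain, in age, in where the rats were housed and in coming from the rats that gave the cells. Whether the BN rats were fasted, and how their blood was drawn, is not stated. The labels of the autologous cultures also disagree on which BN rat gave the plasma for each culture.

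Corticosterone, the main glucocorticoid of the rat, enters cells and binds the glucocorticoid receptor, which chaperones hold ready in the cytoplasm. The bound receptor moves to the nucleus, binds DNA at glucocorticoid response elements and raises transcription of a set of genes within hours. Some of these genes restrain the receptor itself and others restrain growth and inflammatory signalling in leukocytes.

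Levels are log2 values after Robust Multichip Analysis, and a ratio is a difference between 2 such values. The study's criterion calls a probe set when its Rank Product p is under 0.05 in 1 direction and its ratio is over 0.263 (1.2-fold). Linear models in limma served as the stricter test, with p-values adjusted by Benjamini and Hochberg's method across the whole array. Array medians lay between 5.53 and 5.56. Marker genes placed all 8 cultures as mixed leukocytes with T cells (7 markers, summed level 12.92 to 13.04), B cells (3 markers, 11.04 to 11.59) and NK cells (5 markers, 11.03 to 11.22). Markers of monocytes and macrophages stood apart in the autologous cultures, where the summed level of 6 markers was 8.77 and 9.52 against 11.63 to 12.10 in the 6 cultures with SD plasma. *Cd14*, a monocyte receptor for bacterial lipopolysaccharide, read 4.48 and 4.78 with autologous plasma and 9.78 to 10.40 with SD plasma. In such mixed cultures fewer cells of a type and less RNA per cell cannot be told apart.

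**Figure D1:**
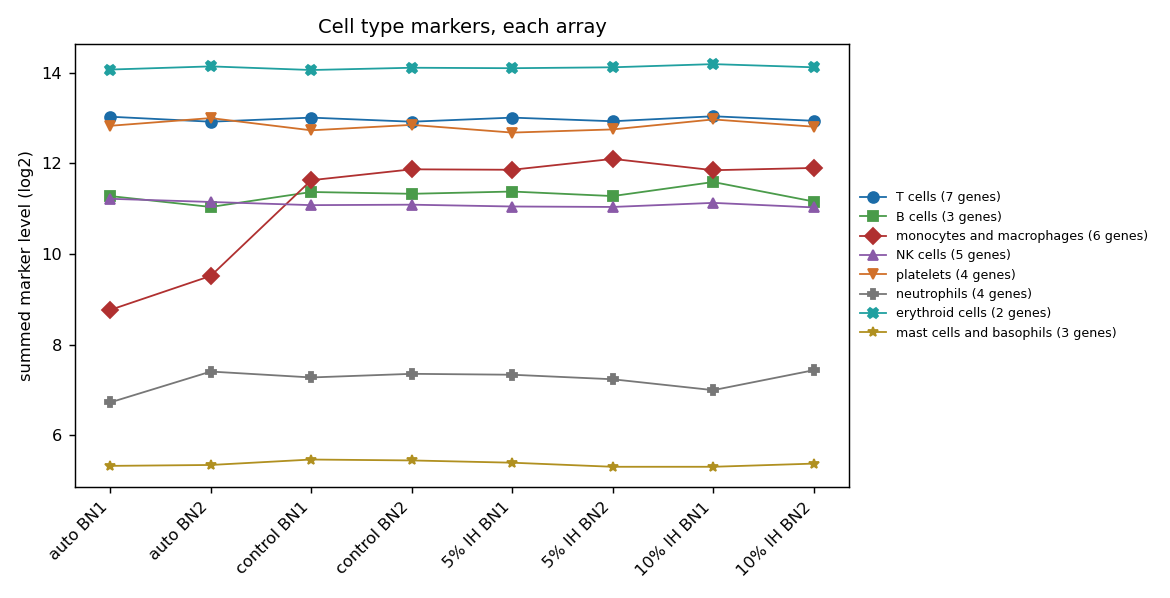
Summed level (log2, vertical axis) of the marker genes of each cell type in each of the 8 arrays (horizontal axis), 1 line per cell type. The monocyte and macrophage line is at 8.77 and 9.52 in the autologous arrays and at 11.63 to 12.10 elsewhere, while T cell markers stay between 12.92 and 13.04.

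Promoters of 4 of the genes on which the results turn are shown as the stretch from 250 bases before to 50 after the start site, from RefSeq on build GRCr8, since these letters are where a response element close to the start would lie. All 8 measured genes were matched, with 13 start sites. Capitals mark TGACG or its complement CGTCA, the half-site of the cAMP response element. *Rasd1* (chr10:45267633-45267932, minus strand), *Fkbp5* (chr20:6543506-6543805, minus strand), *Klf9* (chr1:230126396-230126695, plus strand) and the third start site of *Tsc22d3* (chrX:109009985-109010284, minus strand) read as follows.
Rasd1: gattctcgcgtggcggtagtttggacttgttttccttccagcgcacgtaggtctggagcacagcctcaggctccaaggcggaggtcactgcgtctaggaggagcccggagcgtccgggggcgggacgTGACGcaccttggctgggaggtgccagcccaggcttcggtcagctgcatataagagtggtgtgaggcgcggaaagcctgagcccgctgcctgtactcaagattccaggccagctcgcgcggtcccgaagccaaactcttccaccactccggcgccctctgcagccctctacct
Fkbp5: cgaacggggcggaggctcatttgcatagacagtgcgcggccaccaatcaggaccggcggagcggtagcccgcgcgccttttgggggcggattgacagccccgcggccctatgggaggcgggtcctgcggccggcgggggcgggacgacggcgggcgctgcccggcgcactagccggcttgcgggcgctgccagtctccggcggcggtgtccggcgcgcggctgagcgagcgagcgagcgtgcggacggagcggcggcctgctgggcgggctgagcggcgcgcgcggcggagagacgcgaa
Tsc22d3: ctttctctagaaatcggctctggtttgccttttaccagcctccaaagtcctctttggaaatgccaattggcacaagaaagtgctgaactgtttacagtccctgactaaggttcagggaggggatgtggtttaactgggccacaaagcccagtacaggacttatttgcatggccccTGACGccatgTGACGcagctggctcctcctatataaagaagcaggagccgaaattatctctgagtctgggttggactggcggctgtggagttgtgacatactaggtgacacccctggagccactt
Klf9: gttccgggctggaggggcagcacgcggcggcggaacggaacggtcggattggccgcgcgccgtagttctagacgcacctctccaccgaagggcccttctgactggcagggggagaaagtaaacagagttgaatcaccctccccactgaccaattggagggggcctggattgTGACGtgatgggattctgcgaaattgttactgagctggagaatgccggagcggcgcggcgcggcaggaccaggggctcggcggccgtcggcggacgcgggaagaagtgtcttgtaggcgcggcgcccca

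The full palindrome of the glucocorticoid response element, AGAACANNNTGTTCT, was in none of the 13 promoters and in 0.0149% of 33469 promoters of the table. Its half-site, AGAACA or TGTTCT, was in none of the 13 either and in 20.7% of all, and the full palindrome holds the half-site. TGACG or CGTCA was in 3 of the 13, in *Rasd1* at position -123 from the start, in *Klf9* at -79 and in *Tsc22d3* at -75 and -65, and in 21.2% of all promoters. A match is a run of letters only, and a window of 300 bases says nothing of elements farther away.

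*Rasd1* encodes a small Ras-like GTPase first known as a dexamethasone-induced gene. Its level (probe set 1387908_at) was 5.54 and 5.61 in the control arrays of BN1 and BN2 and 5.61 and 5.39 in the 5% IH arrays. With 10% IH plasma it was 7.17 and 7.05, and with autologous plasma 7.23 and 8.44. The control and 5% IH arrays thus overlapped, and all 4 lay below the 10% IH and autologous arrays.

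*Fkbp5* encodes an immunophilin that binds the chaperone Hsp90 in the receptor complex and lowers the receptor's affinity for hormone, a short feedback loop. Its brighter probe set (1388901_at) read 7.82 and 7.86 with control plasma, 7.92 and 7.90 with 5% IH plasma, 8.31 and 8.64 with 10% IH plasma and 8.51 and 9.46 with autologous plasma. The 10% IH and autologous arrays overlapped. The second probe set (1380611_at) read 6.38 and 6.42, 6.50 and 6.23, 6.89 and 6.87, and 6.98 and 8.01 in the same order of groups, again with all 10% IH and autologous arrays above the rest.

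*Tsc22d3* encodes GILZ, a leucine zipper protein that dampens NF-kB and AP-1 activity in leukocytes. It read 11.46 and 11.47 with control plasma, 11.54 and 11.55 with 5% IH plasma, 12.06 and 11.88 with 10% IH plasma and 11.99 and 12.35 with autologous plasma. *Ddit4* encodes REDD1, an inhibitor of mTORC1 that also responds to hypoxia and stress. It read 8.92 and 8.95 with control plasma, 9.11 and 9.05 with 5% IH plasma, 9.47 and 9.32 with 10% IH plasma and 9.45 and 9.96 with autologous plasma. For both genes the control arrays lay below the 5% IH arrays by a small step, and the 5% IH arrays below the 10% IH arrays by a wider one.

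Among the transcriptional regulators, *Klf9*, a zinc finger factor, read 9.85 and 9.92 with control plasma, 9.93 and 9.99 with 5% IH plasma, 10.25 and 10.45 with 10% IH plasma and 10.28 and 10.56 with autologous plasma. *Per1*, a repressor of the circadian clock, spanned less, with 7.96 and 8.14 for control, 8.07 and 8.02 for 5% IH, 8.25 and 8.17 for 10% IH and 8.22 and 8.43 for autologous plasma. *Sgk1*, a kinase known for its control of ion transport, read 8.19 and 8.08, 8.24 and 8.14, 8.29 and 8.26, and 8.14 and 8.41 in the same order. Its autologous arrays overlapped each of the other groups, so *Sgk1* had no order of groups beyond the spread between donors apart from the 10% IH arrays lying above the control and 5% IH arrays.

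*Nr3c1*, the receptor, had a flatter profile than the induced genes. Its brighter probe set (1368221_at) read 9.82 and 9.88 with autologous plasma, 9.85 and 9.72 with control plasma, 9.74 and 9.81 with 5% IH plasma and 9.71 and 9.69 with 10% IH plasma. The whole range over the 8 arrays was therefore narrow, and the 10% IH arrays were the lowest.

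**Figure D2:**
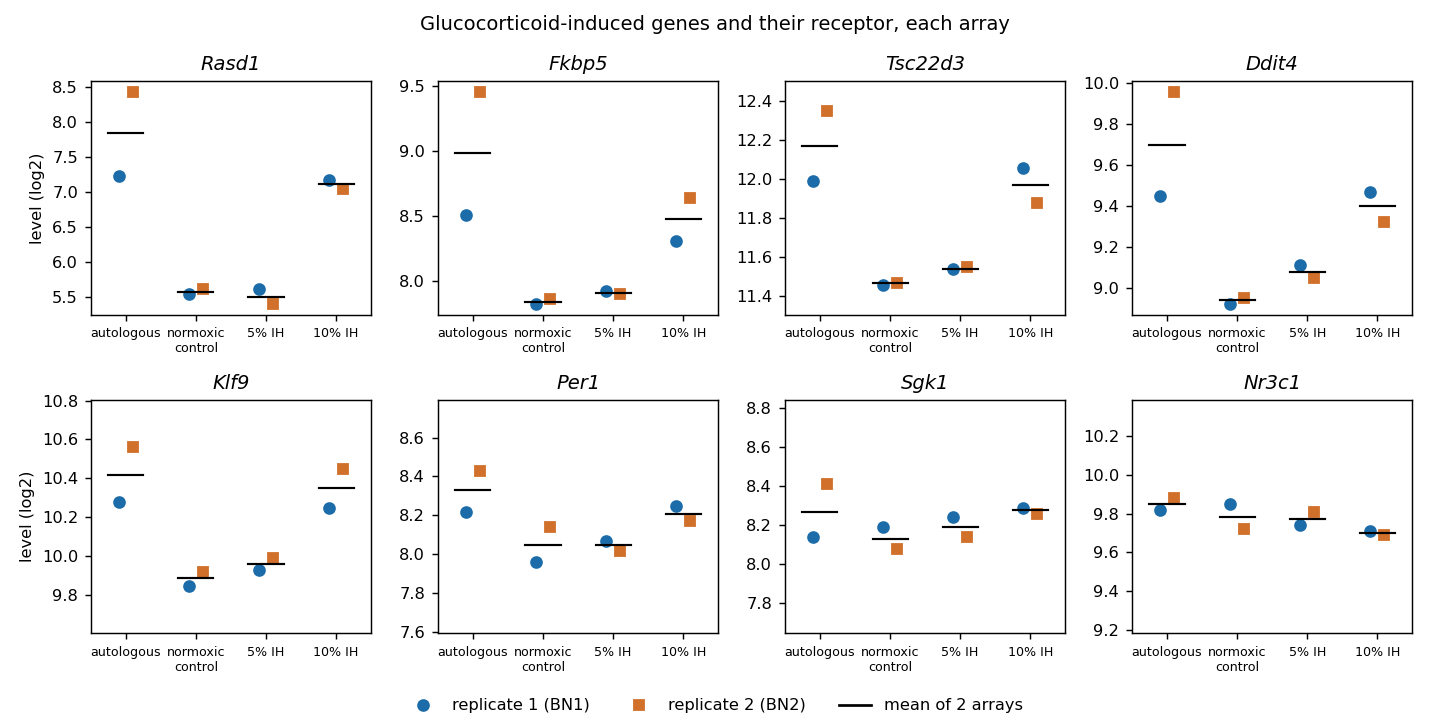
Level (log2, vertical axis) of the brightest probe set of 8 genes in each array, by plasma (horizontal axis), with a circle for BN1, a square for BN2 and a bar for the mean of 2 arrays. Each panel has its own vertical range. *Rasd1* reads 5.39 to 5.61 with control and 5% IH plasma and 7.05 to 8.44 with 10% IH and autologous plasma, while *Nr3c1* reads 9.69 to 9.88 throughout.

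The first question was how the reporter cells differed between normoxic SD plasma and their own plasma. All 7 induced genes had a ratio below 0, and 6 of the 8 genes met the criterion as lower with control plasma, which 5.15% of all probe sets did. *Rasd1* was 4.81-fold higher with autologous than with control plasma, *Fkbp5* 2.22-fold, *Ddit4* 1.70-fold, *Tsc22d3* 1.63-fold, *Klf9* 1.44-fold and *Per1* 1.21-fold. For these 6 genes both control arrays lay below both autologous arrays, as they did for 21.9% of all probe sets. The median ratio of the 7 induced genes was -0.70, against -0.01 over all genes. Control or autologous arrays also served in the ratios that chose *Rasd1* and *Fkbp5*. The counts and the median include both genes and so are not free of that choice. Among the genes not chosen so, *Tsc22d3*, *Ddit4*, *Klf9* and *Per1* met the criterion.

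With limma, 3 of the 8 genes passed as lower with control than with autologous plasma, a call made for 0.293% of all probe sets. *Rasd1* had a ratio of -2.27 (SE 0.306, adjusted p = 0.0058), with the reservation that its control arrays also served in the ratios that chose it. *Tsc22d3* had -0.70 (SE 0.127, adjusted p = 0.0274) and *Ddit4* -0.77 (SE 0.151, adjusted p = 0.0422). The ratios of *Fkbp5* (-1.15, SE 0.252, adjusted p = 0.0696) and *Klf9* (-0.53, SE 0.116, adjusted p = 0.0701) did not pass limma, nor did *Per1* (-0.28, SE 0.107, adjusted p = 0.411). *Sgk1* (-0.14, 95% confidence interval -0.39 to 0.11) and *Nr3c1* (-0.06, -0.27 to 0.14) met neither rule. With the donor as a replicate block, limma passed *Rasd1* (adjusted p = 0.0127) and *Klf9* (0.0426), while *Tsc22d3* (0.0529) and *Ddit4* (0.0693) no longer passed. Without either control array none of the 8 genes passed, and without either 5% IH array or the BN2 autologous array *Rasd1* alone did. Without either 10% IH array *Rasd1* and *Tsc22d3* passed. Without the BN2 autologous array the ratio of *Fkbp5* was -0.68, that of *Ddit4* -0.51 and that of *Per1* -0.17, and 5 genes met the criterion, all but *Per1* of the 6.

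The 5% IH plasma was set against autologous plasma in the same way. Again 6 of the 8 genes met the criterion as lower, the same 6 genes, against 5.35% of all probe sets. The ratios were -2.33 for *Rasd1*, -1.07 for *Fkbp5*, -0.63 for *Tsc22d3*, -0.62 for *Ddit4*, -0.46 for *Klf9* and -0.28 for *Per1*, with a median of -0.62 over the 7 induced genes. Without the BN2 autologous array the median was -0.37, *Fkbp5* had -0.60 and *Ddit4* -0.37, and 4 genes met the criterion (*Rasd1*, *Fkbp5*, *Tsc22d3* and *Ddit4*). With limma, 2 genes passed, *Rasd1* (adjusted p = 0.00429) and *Tsc22d3* (adjusted p = 0.0461), against 0.248% of all probe sets. With the replicate block only *Rasd1* passed (adjusted p = 0.00983), and without the BN2 array of 5% IH none did. Without the BN1 autologous array 4 passed, namely *Rasd1*, *Fkbp5*, *Tsc22d3* and *Ddit4*, and without any single one of the other arrays *Rasd1* alone. Control or autologous arrays also served in the ratios that chose *Rasd1* and *Fkbp5*, so their calls here are not free of that choice. The 2 comparisons share the autologous arrays. Markers of monocytes and macrophages moved the other way in both, with 6 of 6 higher under the criterion with each SD plasma than with autologous plasma, and their part in the ratios of the glucocorticoid-induced genes was not tested.

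The 10% IH plasma lay closer to autologous plasma. The ratio of 10% IH to autologous arrays was -0.72 for *Rasd1*, -0.51 for *Fkbp5* and -0.31 for *Ddit4*, and these 3 genes met the criterion as lower, which 5.21% of all probe sets did. *Rasd1* and *Fkbp5* were selected on 10% IH ratios, so nothing is read from their calls, and of the other 6 genes 1 met it. It was -0.20 for *Tsc22d3*, -0.12 for *Per1*, -0.07 for *Klf9* and 0.00 for *Sgk1*. The BN2 autologous array carried these differences. Without it none of the 8 genes met the criterion, the *Rasd1* ratio was -0.12 and the median of the induced genes -0.02. Without the BN1 autologous array 4 genes met it, the *Rasd1* ratio was -1.33 and the median -0.38. Set against the BN1 autologous array alone, *Rasd1* differed by -0.06 in the BN1 and -0.18 in the BN2 culture with 10% IH plasma, *Tsc22d3* by 0.08 and -0.11 and *Ddit4* by 0.02 and -0.13. The summed level of monocyte and macrophage markers was 11.85 and 11.90 with 10% IH plasma and 8.77 and 9.52 with autologous plasma, and its part was not tested.

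The next question was whether neonatal hypoxia left a trace in adult plasma that these genes could read. For 5% IH plasma none of the 8 genes met the criterion against control plasma, which 3.10% of all probe sets met in either direction. With limma none passed, none had an unadjusted p under 0.05, and 0.00% of all probe sets passed, although 790 had an unadjusted p under 0.05. Ratios ran from -0.07 for *Rasd1* to 0.15 for *Ddit4*, and the median of the 7 induced genes was 0.07. The 95% confidence intervals leave room for differences in both directions, from -0.76 to 0.63 for *Rasd1*, from -0.50 to 0.65 for *Fkbp5*, from -0.20 to 0.49 for *Ddit4* and from -0.21 to 0.37 for *Tsc22d3*. These intervals rest on a spread shared over all 4 groups, the autologous arrays included. In 4 of the 7 induced genes (*Fkbp5*, *Tsc22d3*, *Ddit4* and *Klf9*) both 5% IH arrays lay above both control arrays, which held for 13.3% of all probe sets. Control or autologous arrays also served in the ratios that chose *Rasd1* and *Fkbp5*, so their values here are not free of that choice. Among the other induced genes the order held for *Tsc22d3*, *Ddit4* and *Klf9* and not for *Per1* or *Sgk1*. Of the monocyte and macrophage markers, 3 of 6 were higher with 5% IH than with control plasma, and their part here was not tested.

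For 10% IH plasma, 5 of the 8 genes met the criterion as higher than with control plasma, which 3.58% of all probe sets did. *Rasd1* and *Fkbp5* were selected on this ratio, so for them the count says nothing further. Of the other 6 genes, 3 met it. *Rasd1* was 2.91-fold higher (ratios of 1.64 in BN1 and 1.45 in BN2), *Fkbp5* 1.56-fold (0.49 and 0.78), *Tsc22d3* 1.42-fold (0.60 and 0.41), *Ddit4* 1.38-fold (0.55 and 0.37) and *Klf9* 1.38-fold (0.40 and 0.53). The ratios of *Per1* (0.29 and 0.03) and *Sgk1* (0.10 and 0.18) had the same sign in both donors but averaged 0.16 and 0.14, below the 1.2-fold limit. In all 7 induced genes both 10% IH arrays lay above both control arrays, an order fixed by the selection for *Rasd1* and *Fkbp5*. It held in 5 of the 5 other induced genes and in 17.0% of all probe sets. The median ratio was 0.46 over the 7 induced genes, 0.46 over the 5 not selected on it and 0.00 over all genes. No probe set on the array passed limma for this comparison, where the lowest adjusted p of any probe set was 0.92 and 1612 probe sets had an unadjusted p under 0.05.

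Between the 2 hypoxia pools the same 5 genes were lower with 5% than with 10% IH plasma under the criterion, which 3.06% of all probe sets met. The 10% IH arrays served to select *Rasd1* and *Fkbp5*, and of the other 6 genes 3 met it. Ratios were -1.61 for *Rasd1*, -0.56 for *Fkbp5*, -0.43 for *Tsc22d3*, -0.39 for *Klf9* and -0.31 for *Ddit4*, and the median of the induced genes was -0.39. In all 7 induced genes both 5% IH arrays lay below both 10% IH arrays, in 5 of the 5 not selected on 10% IH ratios, and in 15.9% of all probe sets. The median over those 5 genes was -0.31. No probe set on the array passed limma here either, with a lowest adjusted p of 0.981 and 1452 probe sets at an unadjusted p under 0.05. This comparison and the preceding one share the 10% IH arrays. None of the 6 monocyte and macrophage markers differed between 10% IH and control plasma under the criterion, with summed levels of 11.85 to 11.90 and 11.63 to 11.87, and 2 of 6 were higher with 5% than with 10% IH plasma. Of 2 erythroid markers, 1 was higher with 10% IH than with control plasma under the criterion, *Alas2*, which reads 10.72 and 10.45 against 10.15 and 10.42. Summed erythroid levels were 14.12 to 14.19 and 14.06 to 14.11. Of 4 platelet markers, 1 was lower with 5% than with 10% IH plasma, with summed levels of 12.68 to 12.75 and 12.81 to 12.97. The part of these markers in the ratios was not tested.

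**Figure D3:**
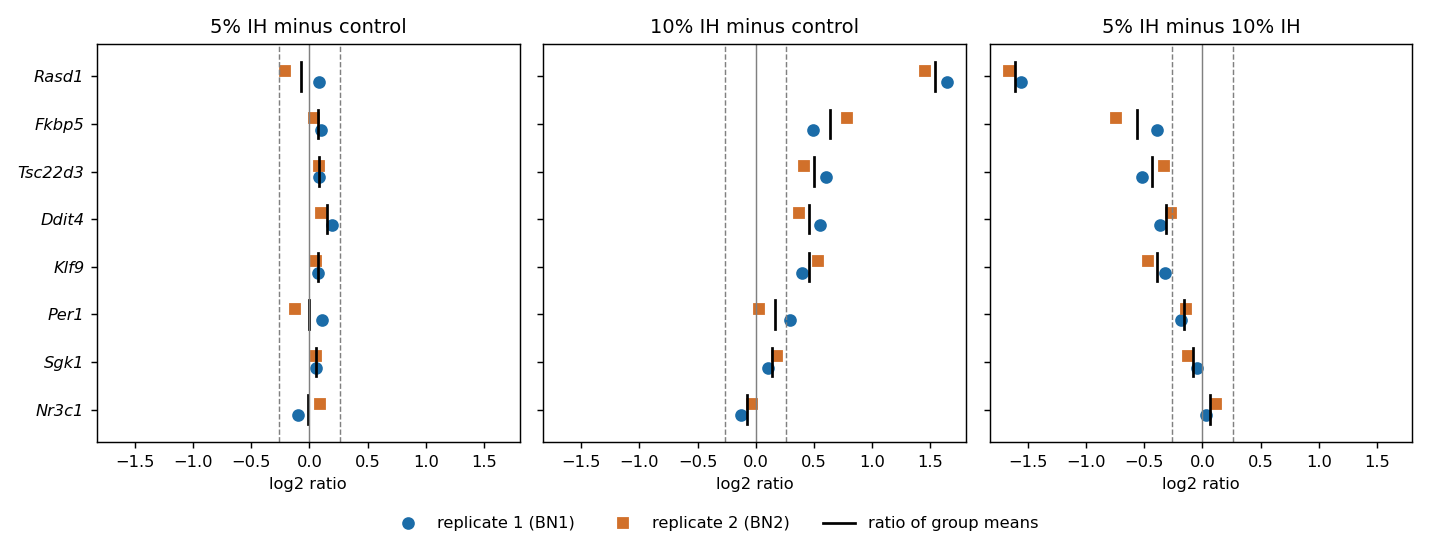
Log2 ratio (horizontal axis) of 8 genes in 5% IH against control, 10% IH against control and 5% IH against 10% IH plasma, with a circle for BN1, a square for BN2, a bar for the ratio of group means and dashed lines at the 1.2-fold limit (0.263). In the middle panel *Rasd1* reads 1.64 and 1.45 and *Sgk1* 0.10 and 0.18, and in the first panel every bar lies within the dashed lines.

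The receptor showed no ratio past the limit in any comparison through its brighter probe set. *Nr3c1* gave -0.06 for control against autologous plasma, -0.07 for 5% IH against autologous, -0.15 for 10% IH against autologous, -0.01 for 5% IH against control, -0.08 for 10% IH against control and 0.07 for 5% against 10% IH plasma. Its dimmer probe set (1368222_at, levels 3.82 to 4.82) differed, with 4.15 and 4.82 in the autologous arrays, 4.29 and 4.05 in the control arrays, 4.42 and 3.82 in the 5% IH arrays and 4.62 and 4.36 in the 10% IH arrays. That probe set met the criterion as lower with control (-0.32) and 5% IH (-0.36) than with autologous plasma, as higher with 10% IH than with control plasma (0.32), and as lower with 5% than with 10% IH plasma (-0.37). The 2 probe sets of the receptor thus disagreed.

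*Klf9* had 2 further probe sets that also departed from the brightest one. The middle one (1387882_at, levels 5.18 to 5.88) had a ratio of -0.17 for control against autologous plasma and met the criterion only for 10% IH against control plasma (0.29), with a wide donor gap in the 10% IH arrays (5.88 and 5.35). The dimmest (1390076_at, levels 3.55 to 4.06) was higher with 5% IH than with control plasma under the criterion (0.28), the single member probe set that met it there, and it also met the criterion as higher with 10% IH than with control plasma, with a ratio of 0.26 that lay just past the limit. Over all 12 probe sets, 8 met the criterion as lower with control than with autologous plasma, which 5.15% of all probe sets did. As higher with 10% IH than with control plasma 9 met it, against 3.58% of all probe sets. Both counts include every probe set of *Rasd1* and *Fkbp5*. These genes were selected on 10% IH ratios, so for them the count of 9 says nothing further. Control or autologous arrays also served in that selection, so the count of 8 is not free of it. Several probe sets belong to the same gene, so these are not counts of separate genes.

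Once the values had been seen, 2 shared features stood out. In 6 of the 7 induced genes, all but *Sgk1*, all control and 5% IH arrays lay below all 10% IH and autologous arrays, an arrangement found in 3.50% of all probe sets. For *Rasd1* and *Fkbp5* the selection favoured part of it, and without them it held in 4 of 5 induced genes. The mean of the induced genes, each centred on its own mean, was -0.38 and -0.34 in the control arrays, -0.28 and -0.34 in the 5% IH arrays, 0.20 and 0.20 in the 10% IH arrays and 0.20 and 0.74 in the autologous arrays. The genes were not scaled, so *Rasd1* and *Fkbp5*, which have the widest ranges and were selected on 10% IH ratios, weigh most in that mean. The BN2 autologous array was the highest of the 8 arrays for all 7 induced genes, against 12.5% of all probe sets.

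In these genes the autologous cultures of BN1 and BN2 also stood far apart. The BN2 array exceeded the BN1 array for all 7 induced genes, by a median of 0.37, while it did so for 42.4% of all genes, with a median of -0.03. *Rasd1* had a gap of 1.21, and 6 of all 14217 genes, *Rasd1* included, had a gap at least as large in this direction. The median gap between donors over the induced genes was 0.367 with autologous, 0.0684 with control, 0.0557 with 5% IH and 0.144 with 10% IH plasma. Over all genes it was 0.106, 0.0899, 0.0920 and 0.111. Monocyte and macrophage markers were also higher in the BN2 than in the BN1 autologous array (9.52 and 8.77), as was the summed level of 4 neutrophil markers (7.41 and 6.73), and the part of these differences was not tested. Donor and plasma cannot be told apart here, since each donor had 1 autologous culture and the labels disagree on its plasma.

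Across the 8 arrays each induced gene followed the mean of the other induced genes. Pearson's r was 0.983 for *Rasd1*, 0.981 for *Tsc22d3*, 0.978 for *Ddit4*, 0.963 for *Fkbp5*, 0.945 for *Klf9*, 0.929 for *Per1* and 0.758 for *Sgk1*, and 0.232 for *Nr3c1*. These are descriptions over 8 arrays that share donors and plasma pools. Each mean gives most weight to *Rasd1* and *Fkbp5* where they are included, as does the mean used to rank other genes below.

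Among the 323 genes with a range of at least 1 log2 unit over the arrays, the 5 whose profile was most like the mean of the induced genes were *Rasa2* (r = 0.990), *Pdha1* (0.981), *Asap2* (0.977), *Cdyl2* (0.976) and *Ipmk* (0.953). *Rasa2*, a GTPase-activating protein for Ras, read 6.25 and 6.19 with control, 6.33 and 6.17 with 5% IH, 6.76 and 6.65 with 10% IH and 6.77 and 7.20 with autologous plasma. *Pdha1*, a subunit of pyruvate dehydrogenase, read 10.66 and 10.64, 10.77 and 10.71, 11.12 and 11.05, and 11.03 and 11.70 in the same order. *Asap2* (an Arf GTPase-activating protein), *Cdyl2* (a chromodomain protein) and *Ipmk* (an inositol phosphate kinase) had ratios of 0.54, 0.48 and 0.35 for 10% IH against control plasma. The mean that these genes were picked to follow is higher in the 10% IH than in the control arrays. The signs of their ratios thus follow from the choice.

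The 5 genes with the most opposite profile were *Chst1* (r = -0.979), *Mreg* (-0.973), *Fcer2* (-0.965), *Reep6* (-0.965) and *Cd180* (-0.940). *Fcer2*, the low-affinity receptor for IgE on B cells, read 6.61 and 6.48 with control, 6.64 and 6.63 with 5% IH, 6.07 and 5.79 with 10% IH and 5.54 and 5.03 with autologous plasma. *Cd180*, a Toll-like surface protein of B cells, had a ratio of -0.38 for 10% IH against control plasma, and *Chst1*, a sulfotransferase, one of -0.53. These genes were picked for running opposite to that mean, so the signs of their ratios follow from the choice as well. The summed level of 3 B cell markers was 11.04 to 11.28 with autologous, 11.33 to 11.37 with control and 11.16 to 11.59 with 10% IH plasma, and its part was not tested.

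**Figure D4:**
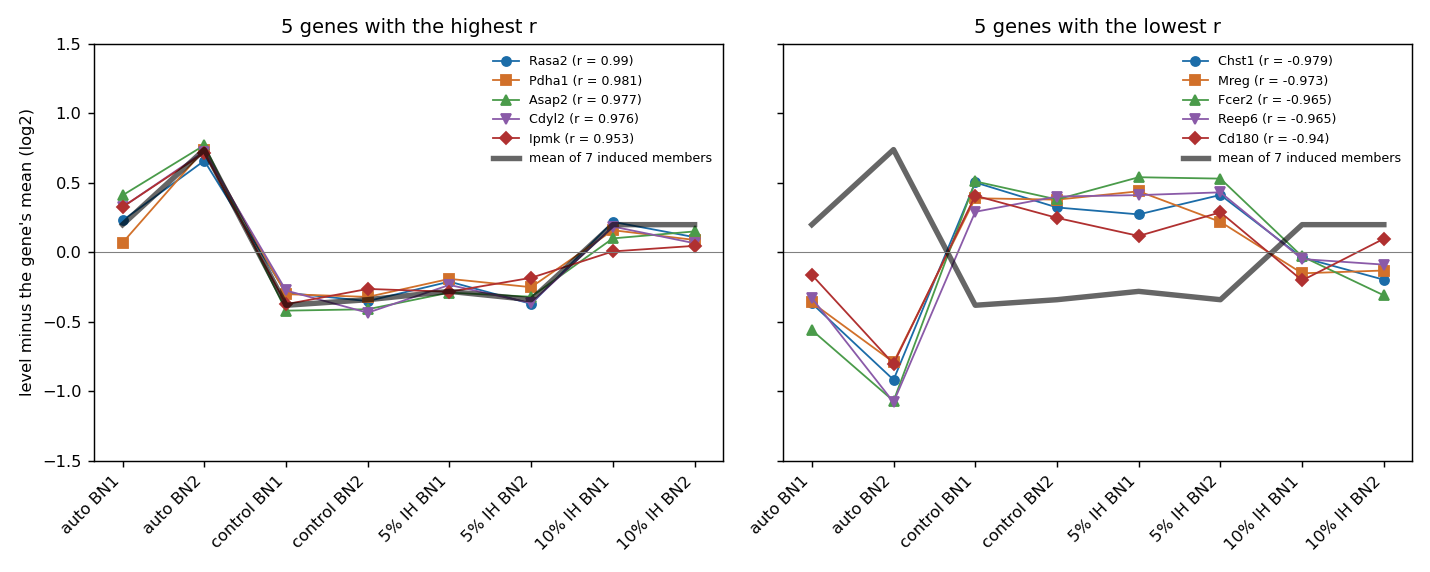
Level minus the gene's own mean (log2, vertical axis) in each of the 8 arrays (horizontal axis) for the 5 genes most like (left) and most opposite to (right) the mean of the 7 induced genes, which is the thick line. The thick line runs from -0.38 in the BN1 control array to 0.74 in the BN2 autologous array, and *Rasa2* follows it with r = 0.990.

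A wider list of genes known to be induced by glucocorticoids was set beside the 7. Of 25 listed, 23 were measured. Under the criterion 8 were lower and 2 higher with control than with autologous plasma. Of all probe sets 5.15% were lower and 5.33% higher. The lowest ratios were those of *Bcl2l11*, a pro-apoptotic BH3 protein (-0.60), and *Txnip*, an inhibitor of thioredoxin (-0.55). The highest were those of *Il1r2*, a decoy receptor for interleukin-1 (0.74), whose groups overlapped, and *Cebpd*, a myeloid transcription factor (0.53). With 10% IH against control plasma 5 of 23 were higher, against 3.58% of all probe sets, and none lower. The 5 were *Il7r* (0.43), *Bcl2l11* (0.38), *Pik3ip1* (0.36), *Txnip* (0.31) and *Alox5ap* (0.29). The median of the list was -0.12 in the first comparison and 0.13 in the second, against -0.70 and 0.46 for the 7 induced genes.

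*Bcl2l11* read 9.71 and 9.77 with control, 9.79 and 9.85 with 5% IH, 10.13 and 10.11 with 10% IH and 10.20 and 10.49 with autologous plasma. *Il7r*, the interleukin-7 receptor of lymphocytes, read 11.02 and 11.06, 11.12 and 11.07, 11.50 and 11.45, and 11.30 and 11.79 in the same order. Both had all control and 5% IH arrays below all 10% IH and autologous arrays. So did *Crispld2*, *Glul*, *Irs2*, *Pdk4*, *Pik3ip1* and *Txnip*, 8 of 23 in all, against 3.50% of all probe sets. Classic responders such as *Dusp1* (0.07), *Zfp36* (0.01) and *Per2* (-0.13) did not meet the criterion for control against autologous plasma.

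The receptor acts with chaperones and cofactors, and enzymes set how much hormone reaches it. Of 11 measured genes for chaperones, cofactors and steroid-converting enzymes, 1 was higher and 1 lower with control than with autologous plasma. Of all probe sets 5.33% were higher and 5.15% lower. *Hsd11b1*, the enzyme that regenerates active glucocorticoid inside cells, had a ratio of 0.94 and *Ptges3*, a cochaperone of Hsp90, 0.08. *H6pd*, which supplies the cofactor for that enzyme, had -0.35, and *Fkbp4*, an immunophilin that competes with Fkbp5, -0.21. None of the 11 met the criterion for 10% IH against control plasma.

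Glucocorticoids also repress inflammatory genes. Of 12 such genes, 6 were higher with control than with autologous plasma, against 5.33% of all probe sets, and none lower. The highest ratios were those of *Il1b* (3.81) and *Ccl2* (2.08), which encode a cytokine and a chemokine of monocytes. The lowest were those of *Csf2* (-0.17) and *Nos2* (-0.11). Monocyte and macrophage markers moved the same way in this comparison, 6 of 6 higher, and their part was not tested. With 10% IH against control plasma, 1 of the 12 was higher (*Il1b*, 0.31) and 1 lower (*Il6*, -0.30), and the median was 0.01. Of all probe sets 3.58% were higher and 3.37% lower. With 5% IH against control plasma 4 were higher, *Ptgs2* (1.17), *Il1b* (0.98), *Tnf* (0.44) and *Icam1* (0.29), and 1 was lower, *Ccl2* (-0.44). Of all probe sets 3.10% met the criterion there in either direction. The same 4 were higher with 5% than with 10% IH plasma and none was lower. The share of all probe sets that were higher there was not counted. Of the monocyte and macrophage markers 3 of 6 and 2 of 6 were higher in these 2 comparisons.

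Members that answer to other signals were set beside their pathways. *Per1* belongs to the clock, of which 11 other genes were measured, and 1 was higher with control than with autologous plasma (*Bhlhe40*, 0.90). *Npas2* gave 0.26, *Per2* -0.13 and *Cry1* and *Cry2* -0.10 each. *Ddit4* also answers to the stress factor ATF4, and of 7 genes of that pathway 4 were higher with control than with autologous plasma, led by *Vegfa* (2.76) and *Asns* (0.66), while *Sesn2* (-0.10) and *Atf4* itself (-0.02) did not meet the criterion. *Ddit4* had a ratio of -0.77, and the part of ATF4 in it was not tested. *Per1* and *Sgk1* answer to cAMP too, and of 9 CREB targets and immediate-early genes 3 were higher, led by *Fos* (1.34) and *Nr4a1* (0.72), and 1 lower (*Crem*, -0.42), while *Fosb* had -0.22. For 10% IH against control plasma these 3 lists held no higher gene and 2 lower ones, *Npas2* (-0.26) and *Nr4a2* (-0.30). Of all probe sets 5.33% were higher and 5.15% lower with control than with autologous plasma. With 10% IH against control plasma 3.58% were higher and 3.37% lower. Of the monocyte and macrophage markers 6 of 6 were higher with control than with autologous plasma, and their part in these lists was not tested.

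**Figure D5:**
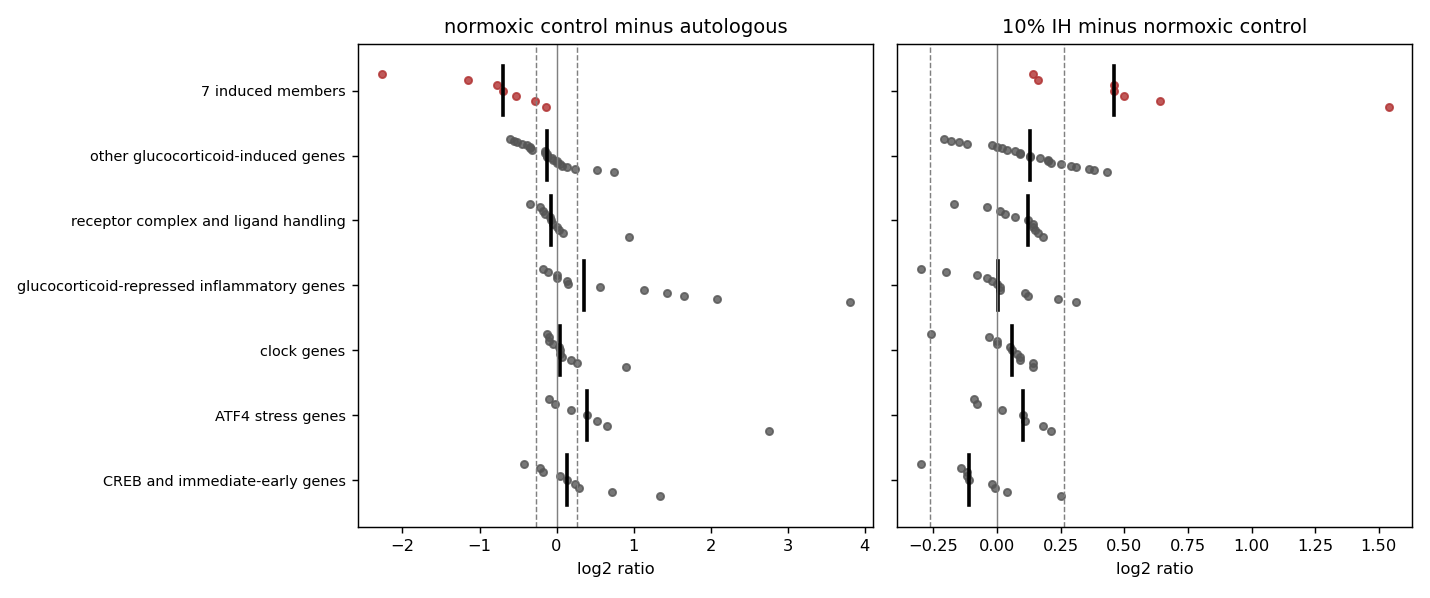
Log2 ratio (horizontal axis) of each measured gene of 7 lists (rows) for control against autologous plasma (left) and 10% IH against control plasma (right), with a bar at the median of each list and dashed lines at the 1.2-fold limit. The horizontal ranges differ. The 7 induced genes have medians of -0.70 and 0.46, and the other glucocorticoid-induced genes -0.12 and 0.13.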

How the data were processed

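Transcript levels were measured on 8 Affymetrix rat arrays. The authors made the deposited log2 values with Expression Console and Robust Multichip Analysis (background correction, quantile normalization, probe set summary), and Partek appears, without version, in the submitters' processing notes. The table held 31042 probe sets from 1.66 to 14.3 with no missing value, and 0 value columns lacked a sample. The platform annotation gave 20826 probe sets 1 symbol, 436 several and 9780 none. A gene is represented by its probe set of 1 symbol with the highest mean. The depth of an array is its number of probes, so the number of arrays limits the precision.

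The 9 genes, the other lists and the tests were chosen with earlier results of these data known, so adjusted p-values describe these arrays and are not independent evidence. Named genes were the 9 genes, the 5 most alike and 5 most opposite in profile, and the 2 highest and 2 lowest of each list for control against autologous plasma. Other genes given as examples were chosen after their values were seen.

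The Rank Product used all 4 between-array ratios of a comparison, 100 permutations within arrays and a 1-sided p under 0.05. The main limma fit (version 3.58.1, R 4.3.3) took 4 groups over 8 arrays and no donor term. Other steps ran in Python 3.11.15 with numpy 2.4.6 and scipy 1.17.1. The steps were tested on simulated data. Replicate numbers name the donor and so pair the arrays. Deviations from group means correlated between same-numbered arrays by 0.24 (5% IH with control), 0.059 (10% IH with control) and 0.165 (10% with 5% IH), and autologous arrays by -0.00387 with control, -0.0833 with 5% IH and -0.171 with 10% IH. Replicates with SD plasma share a pool, so their spread is that between 2 donors with their cultures and arrays. The autologous pair may differ in plasma as well. In the main limma fit the spread behind the p-values is shared over all 4 groups, the autologous pair included. For *Rasd1* the standard deviation was 0.86 in the autologous arrays. It was 0.05 with control, 0.16 with 5% IH and 0.09 with 10% IH plasma. Alternatives were the replicate block, the compared groups alone, an intensity trend, a filter on dim probe sets, other normalizations, a 1.5-fold limit, limma's unadjusted p, averaged probe sets and each array left out.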

Additional observations from a re-analysis of the deposited data

How the results depend on the processing

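No ratio of the 8 genes that met the criterion changed sign under any alternative run. The count of genes that passed limma as lower with control than with autologous plasma (3) became 1 with the compared groups alone and 5 with each array centred on its median, and ran from 0 to 4 with an array left out. For 5% IH against autologous plasma (2) it became 1 with the replicate block, 1 with the compared groups alone, 1 after a second quantile normalization and 4 with an intensity trend, and ran from 0 to 4 with an array left out. Under the criterion, a 1.5-fold limit (0.585) left *Rasd1* alone lower with 10% IH than with autologous plasma (3 genes at the 1.2-fold limit). It left *Rasd1* and *Fkbp5* higher with 10% IH than with control plasma (5) and *Rasd1* lower with 5% than with 10% IH plasma (5). Both genes were selected on 10% IH ratios, so nothing is read from these calls. None of the other 6 genes stayed past that limit in these comparisons. With limma's unadjusted p in place of the Rank Product, *Rasd1* stayed for 10% IH against autologous plasma. For 5% against 10% IH plasma *Rasd1*, *Tsc22d3* and *Klf9* stayed. Both comparisons use the 10% IH arrays, on which *Rasd1* was selected, so these are descriptions and not tests. The median over the induced genes for 5% against 10% IH plasma (-0.39) was -0.31 with a gene's probe sets averaged and -0.42 to -0.33 with an array left out, and for 5% IH against control plasma (0.07) it was 0.0546 to 0.0891. The shares of all probe sets called under the alternatives are not given here. No changed count is therefore read as a result about these genes. Causes were not tested beyond the fewer samples that some settings used. The replicate block left the calls for 5% IH against control plasma at 0. With 2 arrays per group and 1 pool per plasma, differences between pools cannot be told apart from differences between the rats in them.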
